A study of Mus musculus with 4 samples.

Results

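Izumo1r, Gpr83, Nrp1, Capg, Cd83, Swap70 and Plagl1 are 7 genes whose RNA is often listed among those that set regulatory T cells (Treg) apart from other CD4 T cells. They were taken by symbol, 7 of the 55536 genes in the gene tables, and each was found once. Libraries were made from polyA-selected RNA of Treg that had been through inflammation, taken from an adult male mouse aged 6 months of the strain Foxp3CreERT2 x Rosa26YFP, in which the Foxp3 gene drives an inducible Cre recombinase and a fluorescent reporter sits in Rosa26. The labels name a bone marrow haematopoietic cell as the origin of the primary cells. All 4 libraries (called libraries 1 to 4) are technical replicates of biological replicate 1 from 1 donor. There is thus 1 group, and no condition was compared. An SD over the 4 libraries is a spread between technical libraries, and no SD or p-value given here measures spread between animals.

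Depth in the main tables, as the summed expected count, was 9284432, 9341328, 9325636 and 6648385 in libraries 1 to 4, so library 4 was the shallowest. The T cell markers Cd3d, Cd3e, Cd3g, Trac and Cd4 all exceeded 10 TPM (the usual unit of RNA level scaled for transcript length and library depth) in every library, as did the Treg genes Foxp3, Il2ra, Ctla4 and Ikzf2. Of 8 B cell markers, 7 reached 1 TPM in all libraries, and their summed level was 208, 137, 95.1 and 166 TPM in libraries 1 to 4. The summed level of 5 erythroid markers was 1065 TPM in library 1 and 4.60 to 38.6 TPM in the other libraries. Of 6 macrophage and monocyte markers, 2 reached 1 TPM in all libraries, and the summed level was 32.0, 11.1, 8.07 and 19.5 TPM, with Lyz2 at 21.9 TPM in library 1. None of 5 granulocyte or 5 endothelial and stromal markers reached 1 TPM in all libraries, and Ly6g, Cdh5 and Pdgfrb were listed at 0, but S100a9 and S100a8 stood at 5.35 and 3.56 TPM in library 1. In bulk RNA, fewer cells of a type and less RNA per cell cannot be told apart.

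The 7 genes have different roles. Izumo1r encodes folate receptor 4, also called JUNO, a membrane-anchored protein that is the egg's receptor for the sperm protein IZUMO1 and is abundant on Treg. Gpr83 encodes a G protein-coupled receptor, Nrp1 encodes neuropilin-1, a co-receptor for semaphorins and VEGF that marks Treg made in the thymus of mice, and Cd83 encodes an immunoglobulin-family membrane protein best known on mature dendritic cells. Capg encodes an actin filament capping protein of the gelsolin family, and Swap70 encodes an actin-binding protein that acts with Rac GTPases and was first studied in B cells. Plagl1 encodes a nuclear zinc finger transcription factor from an imprinted locus, so it is a signature gene without being a surface or cytoplasmic protein.

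Levels differed widely among the 7 genes. Izumo1r stood at 1192 ± 242 TPM (SD, n = 4 here and below), rank 98 of 22015 nuclear protein-coding genes. Capg followed at 455 ± 69.4 TPM (rank 238), Nrp1 at 235 ± 30.4 TPM (rank 491) and Cd83 at 206 ± 31.5 TPM (rank 554). Gpr83 lay at 72.1 ± 9.43 TPM (rank 1814) and Swap70 at 28.1 ± 7.14 TPM (rank 4035). Plagl1 was near the middle of all coding genes, at 1.39 ± 0.701 TPM (rank 10200).

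**Figure D1:**
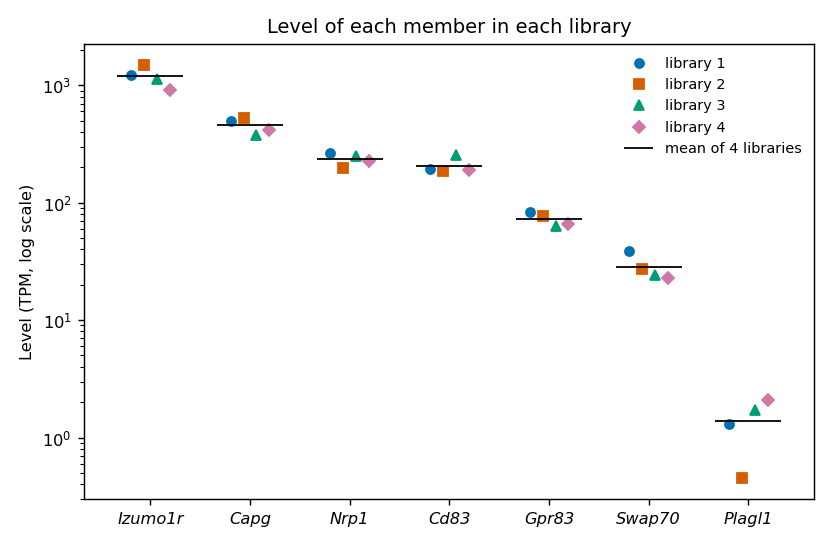
Level in TPM (log axis) of each of the 7 genes, with 1 symbol per library and a line at the mean of the 4 libraries. Izumo1r lies between 916 and 1499 TPM in all libraries and Plagl1 between 0.45 and 2.09 TPM, while the points of Nrp1 and Cd83 overlap.

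The genes were sorted by mean TPM, and neighbours in that order were compared by the log2 ratio of TPM + 0.1 within each library. The order came from the same 4 libraries, so the first gene of each pair has the higher mean TPM by construction. The ratios and p-values below describe pairs sorted in this way. Of 6 neighbouring pairs, 5 had the same order in all 4 libraries and a mean ratio over 2 SD. Izumo1r exceeded Capg by 1.38 ± 0.20, Capg exceeded Nrp1 by 0.95 ± 0.34, Cd83 exceeded Gpr83 by 1.51 ± 0.36, and Gpr83 exceeded Swap70 by 1.38 ± 0.19 on the log2 scale. Swap70 exceeded Plagl1 by 4.38 ± 1.02 on that scale, a ratio that the pseudocount makes smaller. Nrp1 and Cd83 did not differ beyond their spread: their log2 ratio was 0.19 ± 0.21, with Nrp1 higher in 3 of 4 libraries. An exact permutation test that flips the signs of the 4 ratios (two-sided) cannot go below p = 0.125 with 4 libraries, which is the value of the 5 ordered pairs (0.146 after Benjamini-Hochberg adjustment over 7 pairs), and it gave p = 0.25 for Nrp1 and Cd83 (0.25 adjusted).

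Izumo1r was the most abundant of the 7 in every library, at 1225, 1499, 1129 and 916 TPM in libraries 1 to 4. Library 2 was the highest and library 4 the lowest. The gene (ENSMUSG00000031933.17) lies on chromosome 9, from 14885814 to 14903949 on the minus strand (mm10, GENCODE M21). All 5 of its annotated transcripts are protein-coding and start within a single cluster of start sites. Izumo1r-201 held 84.7 ± 1.24% of the TPM of the gene, with 1046, 1272, 937 and 786 TPM in libraries 1 to 4. Izumo1r-202 held 8.11 ± 0.902%, with 94.6, 137, 96.1 and 64.8 TPM. Both transcripts share the 3 middle exons and then use different last exons. The exon of Izumo1r-201 carries 266 coding bases and ends the gene's main form, whereas Izumo1r-202 splices to an exon further downstream that adds 50 coding bases. The 2 stretches that follow show this switch, since it is where the protein ends of both forms part. Each runs from the last 15 bases of the shared exon (lower case) into the first 50 coding bases of the last exon (capitals), at chr9:14900575-14900624 for Izumo1r-201 and chr9:14886295-14886344 for Izumo1r-202, minus strand, from the GENCODE M21 transcripts.
Izumo1r-201: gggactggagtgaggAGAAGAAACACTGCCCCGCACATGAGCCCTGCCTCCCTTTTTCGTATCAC
Izumo1r-202: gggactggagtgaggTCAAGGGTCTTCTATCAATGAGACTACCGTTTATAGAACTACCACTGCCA

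Gpr83 stood at 83.0, 76.8, 62.9 and 65.6 TPM in libraries 1 to 4, with libraries 1 and 2 above libraries 3 and 4. The gene (ENSMUSG00000031932.14) spans chromosome 9 from 14860210 to 14870789 on the plus strand. Its leading transcript was not the longest coding one. Gpr83-202, with a coding length of 1143 bases, held 64.2 ± 6.28% of the TPM, and Gpr83-201, with 1269 coding bases, held 33.1 ± 6.19%. In libraries 1 to 4 Gpr83-202 stood at 57.5, 50.9, 41.6 and 36.1 TPM, and Gpr83-201 at 23.2, 24.1, 19.5 and 27.6 TPM, so the shorter form was higher in all 4 libraries and the margin was smallest in library 4. The authors' posterior SD of the count was 6.63% to 7.41% of the mean for Gpr83-201 and 3.52% to 6.51% for Gpr83-202. The forms differ in coding sequence by the second exon of Gpr83-201, 126 bases or 42 codons at chr9:14864772-14864897, which Gpr83-202 lacks. The next sequences show that exon in capitals between the neighbouring 15 bases on each side, and the joined flanks without it, on the plus strand, from the GENCODE M21 transcripts.
Gpr83-201: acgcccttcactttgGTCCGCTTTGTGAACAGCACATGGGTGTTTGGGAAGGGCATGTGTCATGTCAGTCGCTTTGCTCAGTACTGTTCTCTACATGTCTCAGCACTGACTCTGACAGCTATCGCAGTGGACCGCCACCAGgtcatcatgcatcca
Gpr83-202: acgcccttcactttggtcatcatgcatcca
Gpr83-201 also has 44 more bases at its start and 479 more at its end, so the estimated shares rest on coverage there as well as on the exon.

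Izumo1r and Gpr83 are neighbours that point towards each other. Their annotated ends are 15024 bases apart with 0 genes annotated between them, and their starts are 43739 bases apart. That end of Izumo1r is the end of Izumo1r-202, and the leading transcript Izumo1r-201 ends 29233 bases from Gpr83. Izumo1r was 14.8, 19.5, 17.9 and 14.0 times as abundant as Gpr83 in libraries 1 to 4, a log2 ratio of 4.03 ± 0.23. Both stood above every other gene measured around them. On the Gpr83 side, Mre11a, a DNA double-strand break repair nuclease, had 15.9 TPM and Ankrd49 had 24.0 TPM, while the pseudogenes Gm47154 and Gm16379 and the lincRNA Gm16302 averaged 0.54, 1.81 and 0.50 TPM. On the Izumo1r side, the pseudogene Gm18789 and the lincRNA Gm47214 averaged 0.30 and 0.24 TPM, the channel gene Panx1 had 14.5 TPM, and Hephl1 was listed at 0 in all libraries.

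**Figure D2:**
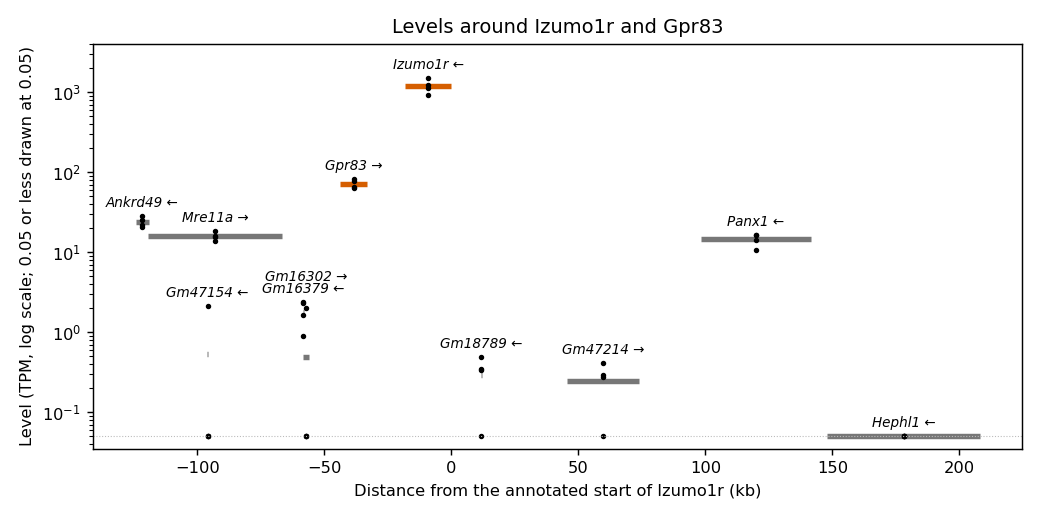
Level in TPM (log axis) of the genes around Izumo1r and Gpr83 against distance in kb from the annotated start of Izumo1r; bars span each gene at its mean, points are the 4 libraries, arrows give the strand, and values of 0.05 or less are drawn at 0.05. Izumo1r (mean 1192 TPM) and Gpr83 (72.1 TPM) stand above Mre11a, Ankrd49 and Panx1, which lie between 10.6 and 28.4 TPM.

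RefSeq promoters (GRCm38.p6, 250 bases before to 50 after the start) were found for 6 of the 7 genes, all but Cd83, and searched on both strands for 8 motifs. TATAAA, the motif of a TATA box, was in 13.6% of 32817 promoters and, of the 6, only in that of Gpr83. The motif TGTGGT (RUNX) was in 16.8% of all promoters and in those of Izumo1r and Swap70. GTAAACA (forkhead) was in 3.65% of all and in Swap70 alone of the 6. GGGCGG (SP and KLF) was in 35.6% of all and in those of Nrp1, Swap70 and Plagl1. CCGGAA (ETS, 14.9% of all), GGAAAA (NFAT, 23.3%), TGANTCA (AP-1, 7.81%) and TGACGTCA (CREB, 1.79%) were in none of the 6. The RefSeq start lies 165 bases downstream of the start of Izumo1r-201 and 5256 bases downstream of that of Capg-201. It lies 211 bases upstream of the start of Nrp1-201. Matches and absences for these genes thus concern the RefSeq windows, not windows placed at the starts of their leading transcripts. A match is a run of letters and was not tested as a binding site. The 2 windows of 30 bases that follow are those of the neighbouring pair, with the match in capitals, at chr9:14860197-14860226 on the plus strand and chr9:14903877-14903906 on the minus strand. The Gpr83 match begins 1 base before the RefSeq start, which is also that of Gpr83-201, so it straddles that start, and it lies 45 bases before the start of the leading transcript Gpr83-202. The Izumo1r match, the reverse complement of the motif, lies 38 bases after the start of Izumo1r-201.
Gpr83: cgggagcagaggTATAAAagtgctgcgagc
Izumo1r: gggatctctggtACCACAaggtcttgtttc

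Nrp1 stood at 267, 197, 249 and 225 TPM in libraries 1 to 4, with library 1 the highest and library 2 the lowest. The gene (ENSMUSG00000025810.9) spans 144760 bases of chromosome 8, from 128358604 to 128503363 on the plus strand. Its coding transcript Nrp1-201 held 69.1 ± 6.20% of the TPM, at 206, 139, 156 and 150 TPM. The other 3 transcripts are annotated as retained-intron forms and together held 30.9 ± 6.20%. Nrp1-203, which holds 2027 bases that lie in an intron of Nrp1-201, took 21.5 ± 4.02% and stood at 43.0, 41.2, 62.5 and 53.8 TPM. It was higher in libraries 3 and 4, while Nrp1-201 was highest in library 1.

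Cd83 stood at 194, 186, 253 and 189 TPM in libraries 1 to 4. Library 3 was apart from the other 3, which lay between 186 and 194 TPM. The gene (ENSMUSG00000015396.4) spans chromosome 13 from 43784775 to 43803132 on the plus strand. Of its 2 annotated transcripts, the coding Cd83-201 held only 6.58 ± 0.947% of the TPM, at 12.16, 10.59, 19.98 and 12.19 TPM. Cd83-202, annotated as a retained-intron form with no coding sequence, held 93.4 ± 0.947%, at 182, 176, 233 and 177 TPM. Among 6177 nuclear protein-coding genes of at least 10 TPM in all libraries, 402 (6.51%) had a retained-intron leading transcript, and 16 (0.259%, Cd83 included) had as large a share in such transcripts. The median share was 5.81% over those genes and 14.6% over the 4214 of them with such a transcript annotated. In the transcript table made directly from the reads, Cd83-202 held 85.5 ± 3.06%, and 37 genes (0.599%) were as high.

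Cd83-201 and Cd83-202 share 2063 bases. Cd83-202 keeps a 95-base stretch, at chr13:43785251-43785345, that is spliced out of Cd83-201, and Cd83-201 has 410 more bases at its start and 4 at its end. All of the evidence between them therefore comes from those few places, and the authors' posterior SD of the Cd83-201 count was 12.9% to 21.4% of its mean, against 1.25% to 1.80% for Cd83-202. The stretch is given because it is the one part of Cd83-202 that Cd83-201 lacks. Capitals mark the 95 bases, the lower case before them is the coding sequence from the start codon, and the 21 bases after them follow in both forms, on the plus strand, from the GENCODE M21 transcripts.
Cd83-202: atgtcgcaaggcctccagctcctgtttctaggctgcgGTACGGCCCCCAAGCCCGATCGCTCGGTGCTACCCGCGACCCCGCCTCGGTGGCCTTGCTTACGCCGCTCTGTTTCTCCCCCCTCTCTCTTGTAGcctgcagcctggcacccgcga
Cd83-201: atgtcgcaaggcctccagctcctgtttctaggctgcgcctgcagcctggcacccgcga
The stretch opens with GT and closes with AG, the usual ends of an intron. Read from the start codon of Cd83-201, the sequence of Cd83-202 reaches its first stop after 43 codons, inside the retained stretch, whereas the reading frame of Cd83-201 has 196 codons. Counting protein-coding transcripts alone in the main table, Cd83 would stand at 13.7 ± 4.23 TPM. That is below Gpr83 at 70.2 ± 9.25 and near Swap70 at 16.7 ± 7.23 TPM. The table made from the reads, rescaled to coding genes, gave Cd83-201 14.5 ± 3.06% of 195 and Swap70-201 57.2 ± 9.52% of 28.2. How near coding Cd83 is to Swap70 thus depends on the table.

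Capg stood at 501, 524, 378 and 416 TPM in libraries 1 to 4, with libraries 1 and 2 above libraries 3 and 4. The gene (ENSMUSG00000056737.14) spans chromosome 6 from 72544391 to 72562983 on the plus strand and has 11 annotated transcripts. Capg-201, which starts at the gene's first base, held 83.6 ± 3.04% of the TPM, at 415, 461, 306 and 342 TPM. Transcripts that start 4882 bases or so further on, Capg-202 among them, together held 15.4 ± 2.99%. Capg-201 and Capg-202 have the same coding length of 1047 bases and differ by a first exon of 76 or 229 bases that is not coding. The RefSeq start used for the promoter search lies 5256 bases downstream of the start of Capg-201, near the minor cluster. The share of the minor cluster was lowest in library 2, at 11.0%, and highest in library 3, at 17.6%.

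Swap70 stood at 38.4, 27.1, 24.0 and 22.8 TPM in libraries 1 to 4, with library 1 above the rest. The gene (ENSMUSG00000031015.8) spans chromosome 7 from 110221711 to 110283506 on the plus strand. The coding Swap70-201 held 57.9 ± 9.28% of the TPM, at 27.3, 15.4, 11.9 and 12.4 TPM. The retained-intron form Swap70-204 held 27.0 ± 8.16%, at 6.42, 8.94, 8.17 and 5.52 TPM, and Swap70-203 held 14.4 ± 4.68%, at 4.70, 2.64, 3.57 and 4.70 TPM. The authors' posterior SD of the count was 10.8% to 24.2% of the mean for Swap70-204 and 11.4% to 12.6% for Swap70-203. For Swap70-201 it was 1.40% to 2.32%. As a share of the gene's expected counts, which is not scaled for length, Swap70-201 held 81.3% and Swap70-204 10.01%. The excess of library 1 was thus in the coding transcript, and neither of these retained-intron forms was highest in library 1 alone. The summed level of the 8 B cell markers, 208, 137, 95.1 and 166 TPM, was also highest in library 1, but library 4, where Swap70 was lowest, had the next highest sum. The erythroid and macrophage sums, 1065 and 32.0 TPM, were highest in library 1 too, and the part of these cells in the Swap70 level was not tested. The antisense gene Gm45515 lies within Swap70 with at most 5.10 expected counts per library, and reads of the pair cannot be told apart where strand is not used. Mir1903 within Nrp1 and Gm27741 within Plagl1 had at most 1.88 and 1.00 expected counts.

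Plagl1 stood at 1.31, 0.45, 1.70 and 2.09 TPM in libraries 1 to 4, on 47, 14, 49 and 28 expected counts. Library 2 was the lowest. The exact Poisson 95% intervals of those counts, which cover counting error only, were 34.5 to 62.5, 7.65 to 23.5, 36.3 to 64.8 and 18.6 to 40.5, and they are not scaled for the unlike depths of the libraries. The gene (ENSMUSG00000019817.18) spans chromosome 10 from 13060504 to 13131694 on the plus strand and has 25 annotated transcripts. Plagl1-202 held 71.0 ± 24.3% of the TPM and ranged from 41.1% in library 4 to 100% in library 1, and no other transcript reached 1 TPM in any library. At these counts the shares of the other forms are estimates from few reads. In library 4, 26.8% of the TPM lay in a short retained-intron form with 0.86 expected counts. Plagl1-225 held 19.1% of the TPM of library 4 on 2.33 expected counts. In CPM (counts scaled to library size, not divided by length), Plagl1 stood at 5.12, 1.56, 5.08 and 4.14 in libraries 1 to 4. Library 4 was thus the highest in TPM but not in CPM, while library 2 was the lowest in both. As a share of the gene's expected counts, which is not scaled for length, Plagl1-202 held 93.1 ± 6.97%. Starts around 13090691, 30187 bases downstream of the first annotated start, held 86.6 ± 10.7%.

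**Figure D3:**
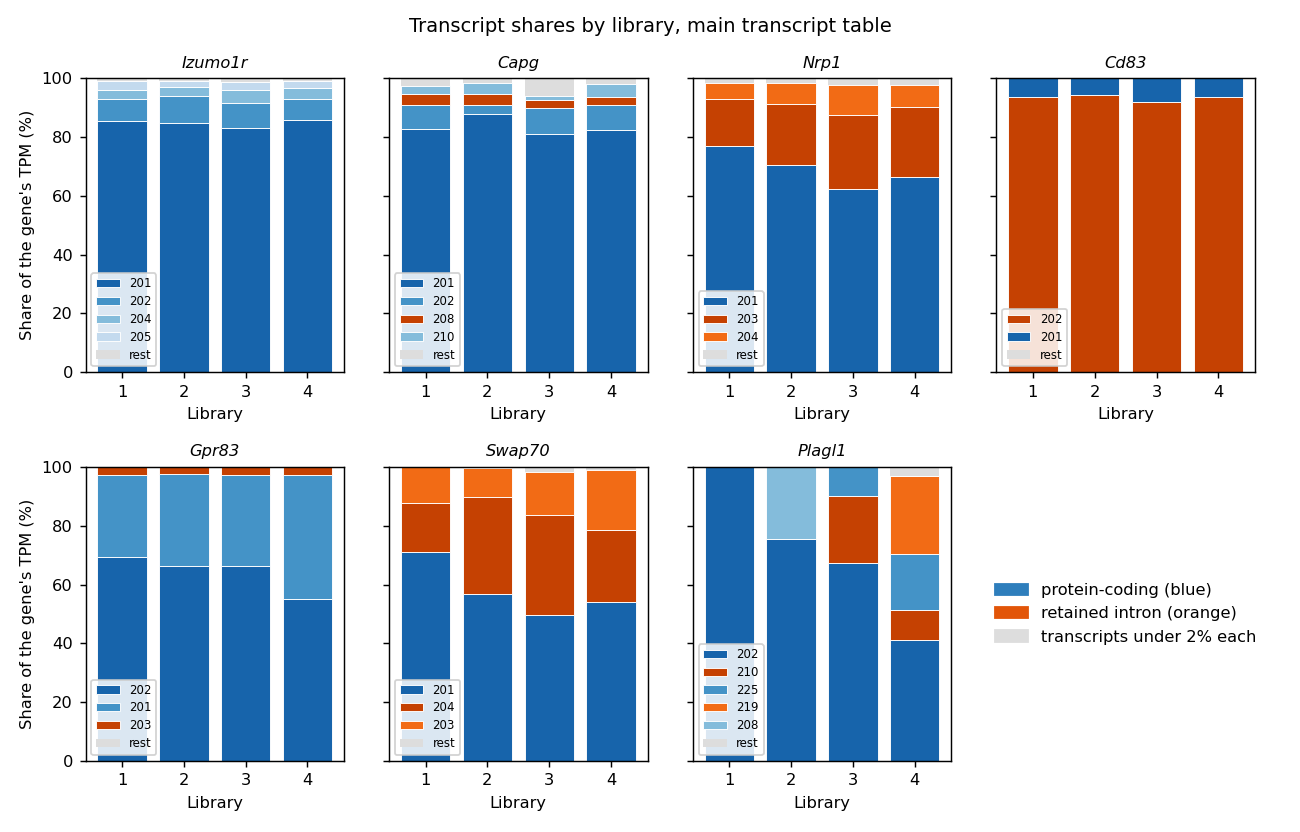
Share of each gene's TPM (%) in each transcript for libraries 1 to 4, with protein-coding transcripts in blue, retained-intron transcripts in orange and transcripts under 2% in grey. Cd83 is almost all orange (Cd83-202, 93.4% on average), Nrp1 and Swap70 are mixed (30.9% and 42.1% retained intron), and Izumo1r has none.

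Whether the genes' shares of counts differed between the libraries was tested with a Poisson likelihood ratio chi-square on TMM-scaled library sizes (edgeR, expected counts rounded, mean count of at least 10), adjusted by Benjamini-Hochberg over 13045 genes. All 7 genes were called at an adjusted p under 0.05, where 68.6% of all tested genes were, so the count of 7 does not set them apart. The largest statistic was that of Izumo1r, a chi-square of 1611, with 1411 CPM (counts scaled to library size) in library 2 and 787 CPM in library 4. At a given span this statistic grows with the count, and Izumo1r had the highest mean count of the 7. Its span was 1.79-fold, which exceeded that of 72.2% of tested genes and was below those of Swap70 and Plagl1. Nrp1 had the smallest span, 1.21-fold from lowest to highest library (edgeR adjusted p = 3.6e-24), and that of Cd83 was 1.34-fold (adjusted p = 2.1e-36). Swap70 spanned 1.92-fold (edgeR adjusted p = 8.5e-35), which exceeded the span of 77.5% of tested genes. The median span was 1.54-fold over the 7 genes and 1.49-fold over all tested genes.

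At least a 2-fold span was added as a second condition. Only Plagl1 met both, with a 3.29-fold span (edgeR adjusted p = 0.00011), beside 16.0% of tested genes. Without library 2, Plagl1 was no longer called (adjusted p = 0.68, span 1.24-fold). The biological coefficient of variation, here a measure of spread between technical libraries beyond counting, ran from 13.9% for Nrp1 to 22.0% for Swap70 and 37.4% for Plagl1, beside a median of 20.1% over tested genes.

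Each library was quantified in 3 ways, and the order of the 7 mean levels was the same in all 3. With both rescaled to the same total over nuclear protein-coding genes, the table made directly from the reads gave levels 0.75 to 0.97 times those of the main table, beside a median log2 ratio of -0.16 and a central 90% from -0.40 to 0.53 over 9942 coding genes. Cd83 lay just outside that range, at -0.42. The counts on the older GENCODE M4 annotation, from a genome alignment, differed more. In CPM, Izumo1r was 1.65 and Capg 1.73 times as high there as in the main table, Nrp1 1.16 times, Gpr83 0.92 times and Swap70 1.00 times. Cd83 was 0.50 times and Plagl1 0.61 times as high. These ratios were inside the central 90% over 9790 coding genes, which ran from -2.27 to 0.88 on the log2 scale. With M4 counts per length, Nrp1 exceeded Cd83 in all 4 libraries by 1.40 ± 0.26 on the log2 scale, and Cd83 exceeded Gpr83 by only 0.64 ± 0.36, less than 2 SD. Which of the 2 pairs around Cd83 exceeded 2 SD thus depended on the table, and the cause was not tested.

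**Figure D4:**
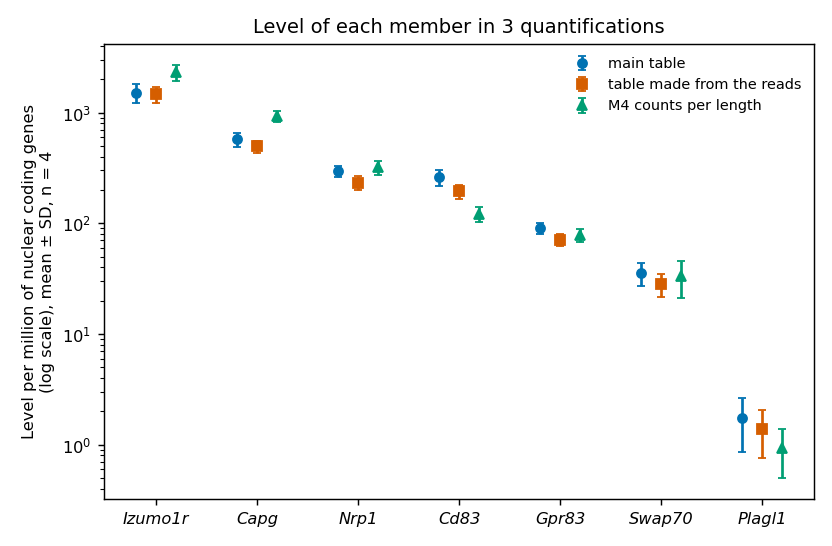
Level of each gene, rescaled to a shared total over nuclear protein-coding genes (log axis, mean ± SD of 4 libraries) in the main table, the table made from the reads and the M4 counts divided by length. The 3 values lie close together for Nrp1, Gpr83 and Swap70, and both Cd83 and Plagl1 are lowest in the M4 counts.

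Genes of the same pathways and families were taken from lists of partners. Of all nuclear protein-coding genes, 45.2% reached 1 TPM and 28.1% reached 10 TPM in all 4 libraries. Of the 5 measured genes of the folate receptor list, which also holds Izumo1, the sperm partner of JUNO, only Slc19a1, the reduced folate carrier, reached 10 TPM, at 35.9 ± 9.97 TPM, and 2 of 5 reached 1 TPM. Of the 3 genes of the GPR83 list, only Gpr171, a receptor for another peptide of the proSAAS precursor, did, at 41.1 ± 6.81 TPM. Pcsk1n, which encodes that precursor and with it a proposed GPR83 ligand, averaged 0.015 TPM. It was named for its role after its value was seen, as were the next few genes of the Nrp1 list. Nrp2, the other neuropilin, averaged 0.010 TPM, and Vegfa was at 0 counts in all 4 libraries, where 3 counts would be 0.321 to 0.451 CPM.

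Among 23 neuropilins, plexins, semaphorins and partners of Nrp1, 8 reached 1 TPM and 2 reached 10 TPM in all libraries. Sema4d, a class 4 semaphorin, was the highest at 96.6 ± 17.2 TPM, and Sema4a, a semaphorin described as a partner of Nrp1 on Treg, stood at 21.2 ± 6.15 TPM. In the gelsolin family, to which Capg belongs, 4 of 7 genes reached 10 TPM in all libraries. Flii was the highest at 59.5 ± 14.1 TPM, followed by Svil at 21.5 ± 2.78, Gsn at 17.9 ± 1.95 and Vill at 15.8 ± 3.74 TPM, so Capg at 455 TPM exceeded every other gene of its family.

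For Cd83, known in dendritic cells to keep MHC class II and CD86 on the surface by opposing a MARCH ubiquitin ligase, 2 of 4 measured partners reached 10 TPM. Cd86 stood at 44.5, 39.5, 51.5 and 41.1 TPM in libraries 1 to 4, and H2-Ab1, an MHC class II chain of B cells and dendritic cells, at 111, 57.2, 26.5 and 64.4 TPM. The ligase genes on the list, named for their role after their values were seen, were lower. March1 stood at 2.44, 0.61, 0.52 and 2.63 TPM, and March8 at 0.05, 0.34, 0 and 0 TPM. Like Cd83, Cd86 was highest in library 3, whereas H2-Ab1 was lowest there, as was the summed level of the B cell markers at 95.1 TPM. The summed level of the 6 dendritic cell markers was 4.53, 2.35, 3.66 and 5.08 TPM. Of the 6, only Zbtb46 reached 1 TPM in all libraries, at 1.73 to 3.26 TPM, while Xcr1 lay at 0.43 to 0.82 TPM and Clec9a was at 0 in 3 libraries. The part of these cells in the Cd83 level was not tested.

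For Swap70, 5 of 6 partners reached 10 TPM in all libraries and all 6 reached 1 TPM. Rac2, the Rac GTPase of blood cells, was the highest at 2293 ± 107 TPM, followed by Rhoa at 318 ± 28.2, Rhoh at 251 ± 32.2 and Rac1 at 41.9 ± 4.00 TPM. Def6, which encodes the nearest relative of SWAP-70, stood at 19.8 ± 2.71 TPM. It averaged less than Swap70 in the main table and more in both other quantifications. The values were 64.6 against 28.2 in the table made from the reads, rescaled to coding genes. In the M4 counts per length, scaled to the TPM total, they were 31.3 against 26.7. Of 10 measured genes of the PLAG family and imprinted loci, 2 reached 10 TPM, Igf2r at 29.3 ± 2.11 TPM and Plagl2, a relative of Plagl1, at 16.6 ± 3.02 TPM.

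**Figure D5:**
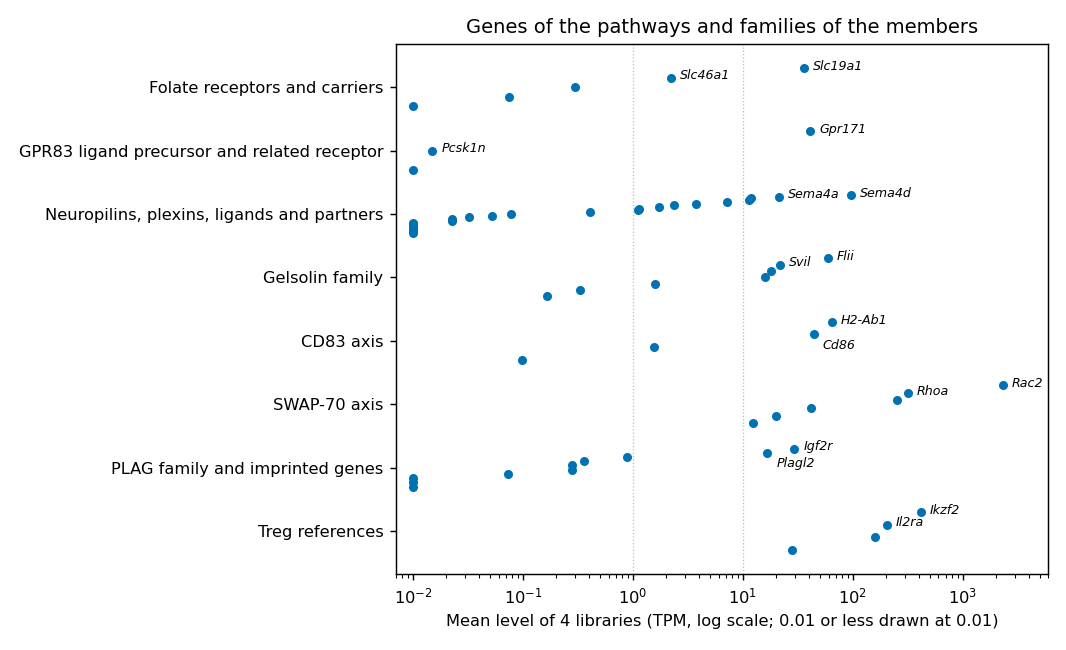
Mean level in TPM (log axis, mean of 4 libraries) of each gene on the lists of partners and relatives, 1 point per gene, with the highest genes of each list named, dotted lines at 1 and 10 TPM, and values of 0.01 or less drawn at 0.01. Rac2 is the highest at 2293 TPM, and most semaphorins and imprinted genes lie below 1 TPM.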

How the data were processed

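The authors deposited 3 quantifications of each library. Main gene and transcript tables hold expected counts and TPM, and the percent of the gene's TPM that each transcript takes, per the file headers; the submitters' notes give mm10, GENCODE M21 and a transcriptome alignment as their source. A further deposited transcript table, made from the reads themselves on M21, holds estimated counts and TPM. Whole-number counts per gene were deposited on GENCODE M4, from a genome alignment, per the same notes. The aligners, counting programs and strand settings were not given in the sources used here.

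Rows outside the annotation (0.133% to 0.504% of expected counts) were left out. M4 counts were matched by identifier (22195 genes), divided by the effective length of the main table (at least 50 bp) and scaled to the TPM total. Because 1 short pseudogene row takes a large part of the TPM made from the reads, that table was also rescaled to nuclear protein-coding genes, an alternative chosen after seeing the data. Expected counts were rounded before the Poisson test, which was first tested on simulated data. TMM factors came from edgeR 4.0.16 and other size factors from DESeq2 1.42.0, in R 4.3.3. Tables and plots were made with pandas 2.3.3 and matplotlib 3.10.9 in Python 3.11.15, and tests of ratios with numpy 2.4.6 and scipy 1.17.1.

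Named were the 7 members, listed genes of at least 10 TPM in all libraries or highest on their list, all neighbours on chromosome 9, and transcripts with a mean share of at least 10%, with a few others named for their role. Start sites within 500 bases formed a cluster. The members and lists were chosen with earlier results of these data known. Protein sequences were not analysed here.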

Additional observations from a re-analysis of the deposited data

Results flagged for a closer look

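The Cd83 level of library 3, 253 TPM, stood apart from the 186 to 194 TPM of the other 3 libraries: its gap to the nearest of them was 0.888 of the whole range, above Dixon's 95% critical value for 4 values. It was the only 1 of 20 groups of 4 values examined (levels, leading transcript shares and ratios of neighbours), and chance gives about 1 in 20. Library 3 was also the highest for Cd83 in the other quantifications. It had 237 against 175 to 188 in the table made from the reads, rescaled to coding genes. In the M4 counts per length it had 118 against 85.9 to 94.1. In both, the gap to the nearest library was a smaller part of the range than in the main table, and Dixon's rule was not applied there. Summed B cell and macrophage markers were lowest in library 3, at 95.1 and 8.07 TPM. Their part in the Cd83 level of library 3 was not tested.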

How the results depend on the processing

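All 7 genes differed between libraries with DESeq2 size factors, raw library totals, no count filter, estimated counts from the reads and M4 counts, and 6 to 7 did with each library left out, Plagl1 being lost without library 2 (adjusted p = 0.68). Over all genes the calls numbered 8945 (68.6% of those tested), and 7049 to 8154 (53.9% to 62%) with a library left out. Of tested genes, 68.5% were called with DESeq2 size factors, 69.2% with raw library totals and 37.2% with no count filter. Estimated counts from the reads gave 62.5% and M4 counts 78.4%, so the counts of members called do not set them apart. Requiring a 2-fold span left 1 of the 7 genes and 2082 (16.0%) of all tested genes. The number of ordered neighbouring pairs was 5 under every alternative but the restriction to genes of at least 1 TPM, which leaves 5 pairs and gave 4; in the M4 counts the pair of Nrp1 and Cd83 replaced that of Cd83 and Gpr83. No mean ratio changed sign under these alternatives, which did not include counting protein-coding transcripts alone. Counted that way in the main table, Cd83 at 13.7 TPM stood below Gpr83 at 70.2 TPM. Levels are relative to their scale: Izumo1r averaged 698 in the TPM made from the reads and 1502 in the main TPM rescaled to coding genes. The leading transcript of each gene was the same in both transcript tables, but Izumo1r-201 fell to 74.9% and Capg-201 to 73.5% in the table made from the reads. As a share of expected counts in place of TPM, Swap70-201 rose from 57.9% to 81.3%. No paired analysis was possible because the labels give 1 group. Depth limits Plagl1 most.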
